A study of Mus musculus with 8 samples.

Results

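The 42 genes described here drive and mark the mitotic cell cycle in mouse: 8 G1 cyclins and G1 kinases, 2 CDK inhibitors, 2 E2F transcription factors, 10 genes of replication licensing and the replication fork, 4 genes of nucleotide supply, 4 genes of S phase, G2 and mitosis (cyclins A2, B1 and B2 and the kinase Cdk1), and 12 genes of mitotic kinases, checkpoint, spindle and chromosomes. They were picked by symbol, for their function, from a table of 53715 genes. All 42 were found in the table and all 42 passed the filter on low values, against 13475 genes in all.

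The RNA came from macrophages that lack Sting (Sting-/-), with 2 libraries in each of 4 groups. The zfCTT group stably expressed mSTING-zfCTT, the dCTT group stably expressed mSTING-dCTT and the mSTING group stably expressed mSTING. The fourth group carried no transgene, and its sample titles read MSCV2.2. STING is a membrane adaptor that signals when cytosolic DNA is sensed; in work on this protein CTT commonly stands for its C-terminal tail and zf for zebrafish, though the labels do not spell the abbreviations out. Every library, the no-transgene ones included, came from cells given 500 µg/ml CMA, 10-carboxymethyl-9-acridanone, an activator of mouse STING, for 4 h, so the values compare transgenes under CMA and say nothing of CMA against no CMA. The labels do not say whether the macrophages were a line or primary cells, whether the transgenic cells were clones, which promoter drove the transgene, or how old the animals were.

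A cell enters the cycle when D-type cyclins activate Cdk4 and Cdk6 and cyclin E activates Cdk2. These kinases inactivate the retinoblastoma protein and so release E2F factors, which switch on genes of replication and nucleotide supply. The MCM helicase is loaded at origins in G1 by Cdc6 and Cdt1. Genes of mitosis come on later, in G2, with CHR elements and CCAAT boxes in many of their promoters. Differentiated macrophages mostly leave the cycle, while macrophage lines go on dividing.

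Letters of both kinds can be looked for in the promoters. The 250 bases before the RefSeq start (build GRCm38.p6) are shown for Mcm5 and Mcm6, 2 subunits of the helicase with E2F-type letters, for Mki67, the gene of the proliferation antigen Ki-67 with CHR letters, and for Cdk1, which has both. Capitals mark E2F-type letters, CHR letters and CCAAT boxes on either strand. The positions are chr8:75109259-75109508 on the plus strand for Mcm5 and, on the minus strand, chr1:128359706-128359955 for Mcm6, chr10:69352913-69353162 for Cdk1 and chr7:135716380-135716629 for Mki67.
Mcm5: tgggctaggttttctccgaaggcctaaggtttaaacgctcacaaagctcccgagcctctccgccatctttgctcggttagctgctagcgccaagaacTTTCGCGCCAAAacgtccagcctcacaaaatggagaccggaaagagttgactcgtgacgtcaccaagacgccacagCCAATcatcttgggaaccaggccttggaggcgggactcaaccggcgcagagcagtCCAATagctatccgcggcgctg
Mcm6: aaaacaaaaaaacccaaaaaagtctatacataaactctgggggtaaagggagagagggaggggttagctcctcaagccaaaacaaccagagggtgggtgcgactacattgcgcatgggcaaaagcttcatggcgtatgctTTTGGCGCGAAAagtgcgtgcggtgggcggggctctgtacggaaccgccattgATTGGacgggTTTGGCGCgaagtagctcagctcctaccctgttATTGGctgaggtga
Cdk1: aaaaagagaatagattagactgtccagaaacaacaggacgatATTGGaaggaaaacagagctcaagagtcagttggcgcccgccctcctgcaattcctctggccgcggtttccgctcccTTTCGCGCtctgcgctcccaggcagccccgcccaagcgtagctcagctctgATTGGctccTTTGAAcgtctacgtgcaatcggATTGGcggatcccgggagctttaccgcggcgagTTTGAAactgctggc
Mki67: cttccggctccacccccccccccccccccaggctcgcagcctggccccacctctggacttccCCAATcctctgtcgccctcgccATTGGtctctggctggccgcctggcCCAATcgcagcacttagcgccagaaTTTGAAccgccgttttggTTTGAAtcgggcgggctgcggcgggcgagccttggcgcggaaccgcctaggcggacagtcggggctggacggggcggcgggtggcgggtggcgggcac

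RefSeq windows of 300 bases, 250 before to 50 after the start, were at hand for 36 of the 42 genes. Ccna2, Ccnd1, Ccnd2, Ccne2, Mcm4 and Aurkb had none in the table used. E2F-type letters, taken as TTTCGCGC, then TTTGGCGC, then TTTCCCGC, then TTTGCCGC, on both strands, stood in 9 of these 36 genes (25%), against 2.60% of all 27025 genes with a window. They stood in 6 of 9 replication genes, in 0 of 4 nucleotide supply genes and in 0 of 11 mitotic genes. The CHR letters TTTGAA, searched on both strands, stood in 13 of 36 (36.1%), against 20.2% of all genes, with 8 of 11 mitotic genes and 2 of 9 replication genes. The CCAAT box stood in 26 of 36 (72.2%), against 41.1% of all genes. In the Mcm5 and Mcm6 windows neighbouring E2F-type matches on opposite strands overlap and read as 1 run of capitals. A gene with several starts counted when any of its windows held the letters, and a match of letters is a description, not a bound site.

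The libraries held 20.1 M to 171 M reads, as recovered from the steps of the RPKM values: 20.1 M and 34.8 M in zfCTT, 55.7 M and 171 M in dCTT, 88.1 M and 88.2 M in mSTING, and 27.7 M and 101 M without transgene. The least-covered value of the 42 genes, Cdkn1b in zfCTT replicate 1, rested on 157 reads. Tmem173, the gene of STING, had 14.2 and 20.6 RPKM in zfCTT, 22.7 and 15.0 in dCTT and 10.6 and 22.2 in mSTING, against 3.23 and 2.42 RPKM without transgene. Of 8 macrophage markers, 7 reached 1 RPKM, while no marker of T cells, B cells, neutrophils, dendritic cells, fibroblasts, epithelium or mast cells did. The first principal component of all tested genes (38.2% of variance) set zfCTT replicate 1 apart, and the second (37.0%) set no-transgene replicate 1 and dCTT replicate 1 apart. These 3 libraries are also the shallowest of their groups, and the part of depth in what follows was not tested. The labels leave unsaid whether replicate libraries stem from different cultures. A p-value here thus covers only library-to-library spread, part of which can be technical. In bulk RNA, a change in the share of dividing cells and a change in RNA per cell cannot be told apart.

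No cell cycle gene differed between transgene labels by more than the test could call: 0 of the 42 genes passed in any of the 6 comparisons. The test was limma's moderated test on log2(RPKM + 1), fitted over all 8 libraries and adjusted over 13475 genes by the Benjamini-Hochberg method, with a threshold of 0.05. Over all genes it called 1.08% in zfCTT against no transgene, 0.119% in zfCTT against mSTING, 1.08% in zfCTT against dCTT, and 0% in each of mSTING against no transgene, dCTT against no transgene and dCTT against mSTING. These calls over all genes depended on single libraries: the 146 genes of zfCTT against no transgene became 2 to 144 with 1 library left out. The smallest adjusted p of a cell cycle gene was 0.144, for E2f2 in zfCTT against dCTT. Summed over the 42 genes, the level was 1498 and 1287 RPKM in zfCTT, 1459 and 1310 in dCTT and 1270 and 1333 in mSTING, against 1440 and 1329 RPKM without transgene. The ranges of all 4 groups overlap in this sum. Single levels averaged 2.24 RPKM for Bub1, a spindle checkpoint kinase and the lowest of the 42, and 135 RPKM for Cdc20, the activator of the anaphase-promoting complex and the highest.

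**Figure D1:**
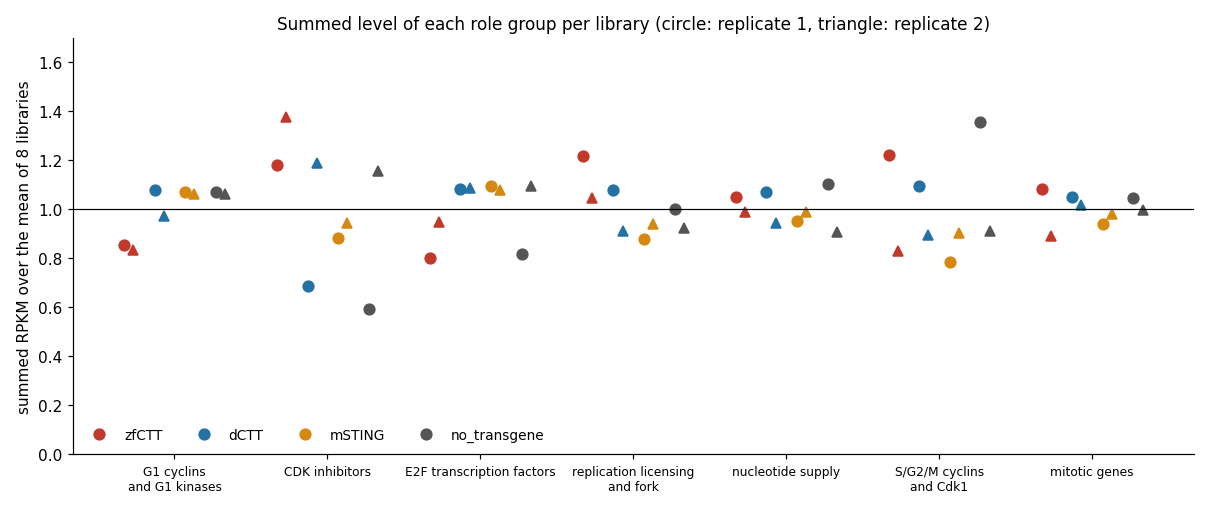
Summed RPKM of the 7 role groups in each of the 8 libraries, divided by the mean of that sum over the 8 libraries. Circles mark replicate 1, triangles replicate 2, and the horizontal line marks the mean over the 8 libraries. Before division the replication sum reaches 604 RPKM in zfCTT replicate 1. Within the S/G2/M group the 2 no-transgene libraries lie further apart, at 171 and 115 RPKM before division, than the means of any of the groups.

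Precision differed between genes. In zfCTT against no transgene the 95% interval of the log2 difference lay within 1 either way for 29 of the 42, and in dCTT against no transgene for 37. Over all tested genes the share was 63.6% and 77.3% for these comparisons. For the remaining genes a 2-fold difference, 1 on the log2 scale, lay within the interval. The log2(RPKM + 1) scale also understates the changes of low genes such as Bub1, Cdc6 and Cdkn1b.

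Among G1 genes the zfCTT libraries held less Ccnd1 and Ccnd2 and more Cdk6, without passing the test. Mitochondrial genes took 0.161% and 0.135% of summed RPKM in zfCTT, against 0.273% to 0.395% in the other 6 libraries, a difference that goes with every comparison of zfCTT and whose part in them was not tested. Ccnd1, cyclin D1 (chromosome 7, 144929931 to 144939925, minus strand), had 32.4 and 48.1 RPKM in zfCTT, 56.4 and 67.1 in dCTT and 66.1 and 68.6 in mSTING, against 58.5 and 68.3 RPKM without transgene. Both zfCTT libraries were below the other 6. The log2 difference of zfCTT was -0.67 ± 0.23 (SE) against no transgene (limma adjusted p = 0.295), -0.76 ± 0.23 against mSTING (limma adjusted p = 0.395) and -0.63 ± 0.23 against dCTT (limma adjusted p = 0.336). Without zfCTT replicate 1 the difference from no transgene was -0.39. These comparisons share the zfCTT libraries and are not independent. Ccnd1 shares 23.4% of its exon length with LTO1, which lies on the other strand, and the strand setting of the counting is not given in the sources used here.

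Ccnd2, cyclin D2, had 14.3 and 8.49 RPKM in zfCTT, 26.2 and 15.9 in dCTT and 13.3 and 15.5 in mSTING, against 30.0 and 17.0 RPKM without transgene. Here mSTING overlapped zfCTT, and the replicate-1 libraries of dCTT and of the no-transgene group were the high ones. The log2 difference of zfCTT from no transgene was -0.97 ± 0.38 (95% interval -1.87 to -0.07, limma adjusted p = 0.343), and it was -0.58 without no-transgene replicate 1 and -0.62 without zfCTT replicate 2. Ccnd3, cyclin D3, had 13.1 and 12.2 RPKM in zfCTT, 16 and 11.1 in dCTT and 17.0 and 12.1 in mSTING, against 12.8 and 12.1 RPKM without transgene. No group of it stood apart.

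Cdk6, which pairs with the D cyclins (chromosome 5, 3341485 to 3531008, plus strand), had 12.7 and 6.52 RPKM in zfCTT, 5.15 and 3.66 in dCTT and 4.96 and 4.07 in mSTING, against 5.34 and 3.68 RPKM without transgene. Both zfCTT libraries were above the other 6, but they differed from each other more than the other groups did. The log2 difference was 0.90 ± 0.33 against no transgene (95% interval 0.12 to 1.68, limma adjusted p = 0.311), 0.89 ± 0.33 against mSTING and 0.92 ± 0.33 against dCTT. Without zfCTT replicate 1 the difference from no transgene was 0.46. Cdk4, the other D-cyclin kinase and the most abundant G1 gene, had 107 and 99.3 RPKM in zfCTT, 117 and 108 in dCTT and 126 and 123 in mSTING, against 109 and 123 RPKM without transgene. Its zfCTT values sat just under the lowest of the other 6, and 19.7% of its exon length is shared with Tspan31.

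In the cyclin E arm the zfCTT values of Ccne1, Ccne2 and Cdk2 lay below both no-transgene values, without passing the test. They overlapped those of dCTT. Ccne1 had 10.2 and 11.1 RPKM in zfCTT, 19.8 and 10.8 in dCTT and 13.3 and 14.1 in mSTING, against 20.6 and 12.9 RPKM without transgene. Ccne2 had 2.44 and 2.38 RPKM in zfCTT, 2.24 and 2.52 in dCTT and 1.79 and 2.58 in mSTING, against 4.01 and 2.63 RPKM without transgene. Cdk2, the kinase of both E cyclins, had 4.08 and 3.52 RPKM in zfCTT, 5.44 and 4.00 in dCTT and 3.89 and 3.83 in mSTING, against 6.46 and 4.37 RPKM without transgene. The no-transgene replicate 1 library was the highest of the 8 for all of Ccne1, Ccne2 and Cdk2. The 8 G1 genes had a median log2 difference of -0.36 in zfCTT against no transgene, beside -0.04 over all tested genes. In this comparison 7 of the 8 had separate ranges, 1 higher and 6 lower, beside 39.6% of all tested genes. Over all 13475 tested genes 2539 were higher and 2801 lower in this way. Against mSTING and against dCTT the zfCTT libraries had separate ranges for 4 of the 8 G1 genes each. The shares of all tested genes there were 49.4% and 44.8%.

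Of the CDK inhibitors, Cdkn2c (p18, which binds Cdk4 and Cdk6) had 13.2 and 15.0 RPKM in zfCTT, 6.16 and 11.7 in dCTT and 8.19 and 9.33 in mSTING, against 4.95 and 11.5 RPKM without transgene. The zfCTT libraries were the highest 2 of the 8, with a log2 difference from no transgene of 0.81 ± 0.40 (95% interval -0.16 to 1.77, limma adjusted p = 0.459). It was 0.27 without no-transgene replicate 1 and 1.34 without no-transgene replicate 2. Cdkn1b (p27, an inhibitor of the cyclin E and cyclin A kinases) had 1.72 and 2.41 RPKM in zfCTT, 2.53 and 3.37 in dCTT and 2.99 and 2.64 in mSTING, against 2.58 and 3.13 RPKM without transgene. The zfCTT libraries were the lowest 2, and the log2 difference from no transgene was -0.34 ± 0.20 (limma adjusted p = 0.524), or -0.17 without zfCTT replicate 1.

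E2f2, an activating E2F factor (chromosome 4, 136172394 to 136196057, plus strand), gave the smallest p-value of the 42 over the 6 comparisons. It had 4.82 and 5.48 RPKM in zfCTT, 9.0 and 9.16 in dCTT and 8.30 and 7.44 in mSTING, against 7.25 and 9.34 RPKM without transgene. The zfCTT libraries lay below all others and close to each other. The log2 difference was -0.71 ± 0.17 against dCTT (95% interval -1.13 to -0.30, limma adjusted p = 0.144), -0.53 ± 0.17 against mSTING (limma adjusted p = 0.416) and -0.59 ± 0.17 against no transgene (limma adjusted p = 0.212). E2f1, the more abundant factor, had 24.8 and 29.6 RPKM in zfCTT, 31.0 and 31.0 in dCTT and 32.1 and 32.5 in mSTING, against 23.0 and 31.1 RPKM without transgene, and the zfCTT range lay within the no-transgene range.

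**Figure D2:**
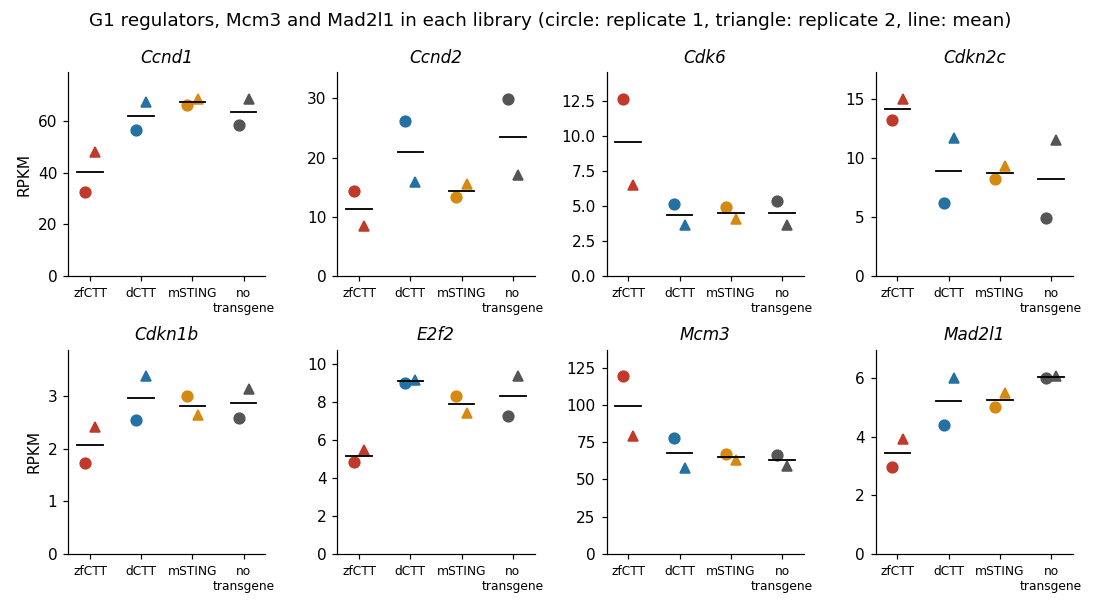
RPKM of G1 regulators, Mcm3 and Mad2l1 in each library (circle, replicate 1; triangle, replicate 2; line, mean of the 2). The zfCTT values of Ccnd1, 32.4 and 48.1 RPKM, and of E2f2, 4.82 and 5.48 RPKM, lie under those of the other 6 libraries, and those of Cdk6, 12.7 and 6.52 RPKM, above them.

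The summed level of the 10 replication genes was highest in zfCTT replicate 1, and Mcm3 alone of the 10 had both zfCTT libraries above the other 6. Mcm3, a helicase subunit, had 119 and 79.1 RPKM in zfCTT, 77.7 and 57.6 in dCTT and 67.3 and 63.0 in mSTING, against 66.6 and 58.9 RPKM without transgene. Its log2 difference from no transgene was 0.62 ± 0.25 (95% interval 0.01 to 1.23, limma adjusted p = 0.363), and it was 0.33 without zfCTT replicate 1. Mcm5 had 109.8 and 75.1 RPKM in zfCTT, 81.6 and 56.6 in dCTT and 63.0 and 60.7 in mSTING, against 71.8 and 61.3 RPKM without transgene, and zfCTT overlapped dCTT. Mcm6 had 65.0 and 35.8 RPKM in zfCTT, 38.8 and 26.9 in dCTT and 29.5 and 29.4 in mSTING, against 45.4 and 27.0 RPKM without transgene, so 1 library led in each group but mSTING.

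Mcm2 had 35.5 and 30.9 RPKM in zfCTT, 32.4 and 26.5 in dCTT and 33.0 and 27.6 in mSTING, against 26.0 and 25.6 RPKM without transgene. Its mSTING values lay above the no-transgene values, with a log2 difference of 0.22 ± 0.19 (limma adjusted p = 0.840). Cdc6, a helicase loader, had 3.97 and 2.25 RPKM in zfCTT, 3.71 and 1.62 in dCTT and 1.37 and 1.71 in mSTING, against 4.28 and 1.78 RPKM without transgene. The groups other than mSTING each held a high and a low library of Cdc6. Its partner Cdt1 had 60.4 and 77.6 RPKM in zfCTT, 71.8 and 74.6 in dCTT and 71.2 and 75.1 in mSTING, against 57.6 and 71.9 RPKM without transgene. Pcna, the sliding clamp of the fork, had 110.3 and 144 RPKM in zfCTT, 134 and 138 in dCTT and 101 and 137 in mSTING, against 132 and 139.6 RPKM without transgene. In both genes the zfCTT and no-transgene ranges overlap. The other helicase subunits Mcm4 and Mcm7 ran over 22.4 to 28.7 and 34.1 to 58.1 RPKM, and Cdc45, a helicase cofactor, over 11.4 to 20.8 RPKM. For Pcna the log2 difference of zfCTT from no transgene was -0.11 ± 0.22 (95% interval -0.64 to 0.42, limma adjusted p = 0.880).

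Of the 4 nucleotide supply genes, 0 had separate ranges in zfCTT and no-transgene libraries, beside 39.6% of all tested genes. Rrm2, the S-phase subunit of ribonucleotide reductase, had 29.8 and 33.4 RPKM in zfCTT, 29.4 and 24.4 in dCTT and 25.6 and 29.9 in mSTING, against 30.6 and 21.4 RPKM without transgene. Tyms, thymidylate synthase, had 10.6 and 6.88 RPKM in zfCTT, 8.50 and 6.86 in dCTT and 7.03 and 7.09 in mSTING, against 11.9 and 7.0 RPKM without transgene. Tk1, thymidine kinase, had 27.3 and 24.2 RPKM in zfCTT, 30.1 and 29.8 in dCTT and 28.2 and 27.0 in mSTING, against 26.1 and 30.1 RPKM without transgene. The no-transgene replicate 1 library was highest for Tyms, as it was for Rrm1, the large reductase subunit, which ran over 5.68 to 9.58 RPKM. For Tk1 the log2 difference of zfCTT from dCTT was -0.21 ± 0.16 (limma adjusted p = 0.642).

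In the S phase, G2 and mitosis group the gap between libraries of the same label could exceed that between labels. Ccnb1, cyclin B1, had 20.3 and 10.7 RPKM in zfCTT, 16 and 9.78 in dCTT and 5.32 and 10.7 in mSTING, against 33.3 and 9.34 RPKM without transgene. The no-transgene values enclose all 6 others except mSTING replicate 1. The log2 difference of mSTING from no transgene was -1.13 ± 0.63 (95% interval -2.63 to 0.37, limma adjusted p = 0.840), and it was -0.26 without no-transgene replicate 1, -2.0 without no-transgene replicate 2 and -0.69 without mSTING replicate 1. Cdk1, the mitotic kinase, had 18.2 and 13.7 RPKM in zfCTT, 18.1 and 18.0 in dCTT and 16.7 and 18.2 in mSTING, against 25 and 18.8 RPKM without transgene. Ccna2, cyclin A2, had 39.8 and 30.1 RPKM in zfCTT, 33.1 and 30.3 in dCTT and 42.1 and 36.0 in mSTING, against 49.1 and 30.1 RPKM without transgene, with the highest value again in no-transgene replicate 1. Ccnb2, cyclin B2, had 76.3 and 50.3 RPKM in zfCTT, 71.6 and 55.4 in dCTT and 35.1 and 49.6 in mSTING, against 64.1 and 57.2 RPKM without transgene. Both mSTING libraries of Ccnb2 lay below the other 6, with a log2 difference from no transgene of -0.53 ± 0.28 (limma adjusted p = 0.840).

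Mki67 followed Ccnb1. It had 5.38 and 2.23 RPKM in zfCTT, 3.94 and 2.63 in dCTT and 1.68 and 2.34 in mSTING, against 9.85 and 2.50 RPKM without transgene. These values rest on 1085 and 780 reads in zfCTT, 2207 and 4540 in dCTT and 1490 and 2076 in mSTING, against 2747 and 2547 reads without transgene. For Mki67 the log2 difference of mSTING from no transgene was -1.04 ± 0.56 (limma adjusted p = 0.840), and it was -0.23 without no-transgene replicate 1 and -1.86 without no-transgene replicate 2. Top2a, the topoisomerase that untangles chromosomes, had 13.6 and 9.89 RPKM in zfCTT, 9.22 and 7.73 in dCTT and 7.25 and 7.45 in mSTING, against 11.7 and 6.89 RPKM without transgene. For Top2a the log2 difference of zfCTT from no transgene was 0.34 ± 0.27 (limma adjusted p = 0.639), and -0.0062 without no-transgene replicate 2.

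Mad2l1, a spindle checkpoint gene (chromosome 6, 66535390 to 66547220, plus strand), went with Ccnd1 and E2f2 in being low in zfCTT. It had 2.97 and 3.93 RPKM in zfCTT, 4.41 and 6.02 in dCTT and 5.0 and 5.49 in mSTING, against 6.01 and 6.07 RPKM without transgene. The log2 difference of zfCTT was -0.67 ± 0.19 against no transgene (limma adjusted p = 0.203), -0.50 ± 0.19 against mSTING (limma adjusted p = 0.443) and -0.48 ± 0.19 against dCTT (limma adjusted p = 0.375). Birc5, survivin, had 29.5 and 30.9 RPKM in zfCTT, 33.3 and 36.6 in dCTT and 33.1 and 35.0 in mSTING, against 43.4 and 35.7 RPKM without transgene, with zfCTT again lowest. The mitotic kinases did not follow. Plk1 had 66.4 and 69.8 RPKM in zfCTT, 65.8 and 80.9 in dCTT and 75.6 and 78.6 in mSTING, against 61.2 and 79.1 RPKM without transgene. Aurkb had 41.8 and 34.7 RPKM in zfCTT, 45.0 and 41.6 in dCTT and 34.0 and 38.5 in mSTING, against 34.6 and 42 RPKM without transgene. In both the zfCTT range lay within the no-transgene range. Aurka, the centrosomal Aurora kinase, ran over 28.7 to 45.7 RPKM. Cdc20 had 153 and 115 RPKM in zfCTT, 153 and 131 in dCTT and 123 and 132 in mSTING, against 141 and 129 RPKM without transgene, and the zfCTT libraries enclosed the other 6. The remaining genes, the checkpoint kinases Bub1 (1.44 to 3.36 RPKM) and Bub1b (23.0 to 35.8 RPKM), the centromeric histone Cenpa (18.2 to 24.96 RPKM) and the spindle motor Kif11 (2.8 to 5.92 RPKM), had 0 comparisons at an unadjusted p under 0.05.

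**Figure D3:**
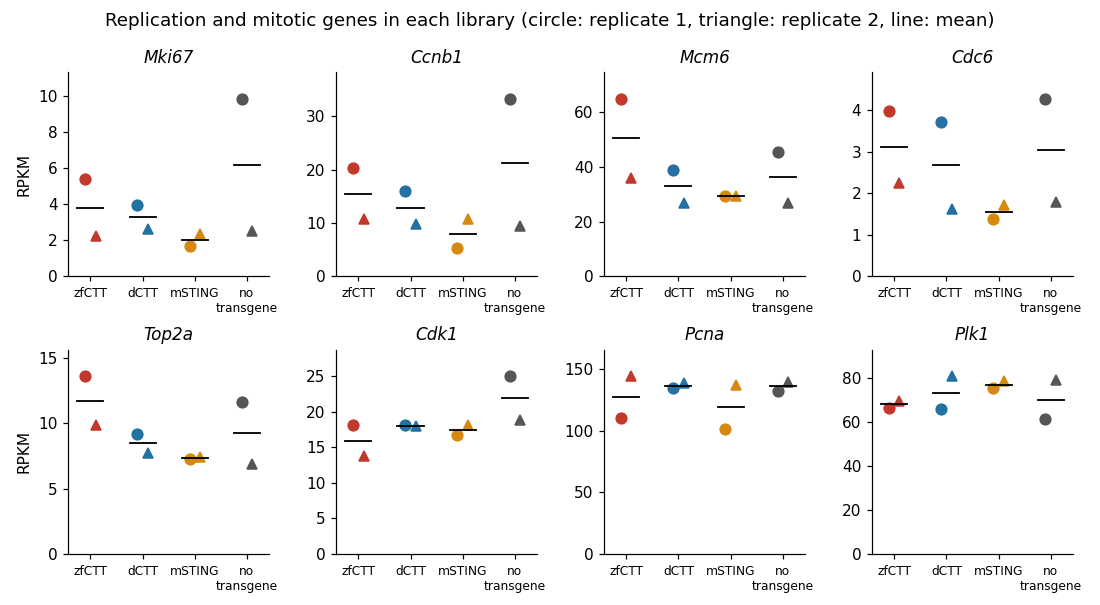
RPKM of replication and mitotic genes in each library (circle, replicate 1; triangle, replicate 2; line, mean of the 2). For Ccnb1 and Mki67 no-transgene replicate 1 stands at 33.3 and 9.85 RPKM, above all other libraries.

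Read against all genes, the counts without adjustment were near the background in the zfCTT comparisons. At an unadjusted p under 0.05, zfCTT against no transgene held 6 of the 42 (14.3%), namely Ccnd1, Ccnd2, E2f2 and Mad2l1 lower and Cdk6 and Mcm3 higher, beside 13.4% of all tested genes. zfCTT against mSTING held 4 (9.52%), beside 11% of all genes, and zfCTT against dCTT held 4 (9.52%), beside 12.7%. These 4 were Ccnd1, E2f2 and Mad2l1, lower, and Cdk6, higher, in both comparisons. Comparisons without zfCTT held 0 of the 42, beside 3.47% of all genes in mSTING against no transgene, 0.267% in dCTT against no transgene and 2.49% in dCTT against mSTING.

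Counts of genes whose libraries did not overlap between groups were also near the background in the zfCTT comparisons. In zfCTT against no transgene 17 of the 42 (40.5%) did not overlap, 5 higher and 12 lower, beside 39.6% of all genes. In zfCTT against mSTING there were 19 (45.2%), 10 higher and 9 lower, beside 49.4%, and in zfCTT against dCTT 16 (38.1%), 6 higher and 10 lower, beside 44.8%. Among comparisons of the other groups, mSTING against no transgene had 16 (38.1%), of which 13 were lower, beside 32.3%, dCTT against no transgene had 3 (7.14%), beside 14.4%, and dCTT against mSTING had 13 (31.0%), beside 29%. By direction, mSTING against no transgene had 3 of the 42 higher and 13 lower. Over all genes it had 2067 of 13475 higher and 2292 lower, a smaller share lower than among the 42. With both zfCTT libraries above all 6 others stood Cdk6, Cdkn2c and Mcm3, 3 of 42 or 7.14%, beside 10.5% of all genes. With both below all 6 others stood Ccnd1, Cdk4, Cdkn1b, E2f2, Mad2l1 and Birc5, 6 of 42 or 14.3%, beside 10.9% of all genes.

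The median log2 difference over the 42 genes was -0.04 in zfCTT against no transgene, where all tested genes also had -0.04. It was 0.06 in zfCTT against mSTING, beside 0.01 over all genes, and -0.04 in zfCTT against dCTT, beside -0.02. In mSTING against no transgene it was -0.11, beside -0.04, with 29 of 42 genes below 0, beside 7361 of 13475 genes in all. In dCTT against no transgene it was -0.04, beside -0.01, and in dCTT against mSTING 0.09, beside 0.03. In size, regardless of sign, the median was 0.24 in zfCTT against no transgene, the value found over all genes too. The medians over the 42 pool role groups of opposite sign. In zfCTT against mSTING the median was 0.32 for replication genes, -0.22 for G1 genes and -0.39 for E2F factors. The other role groups lay between 0.06 and 0.21.

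**Figure D4:**
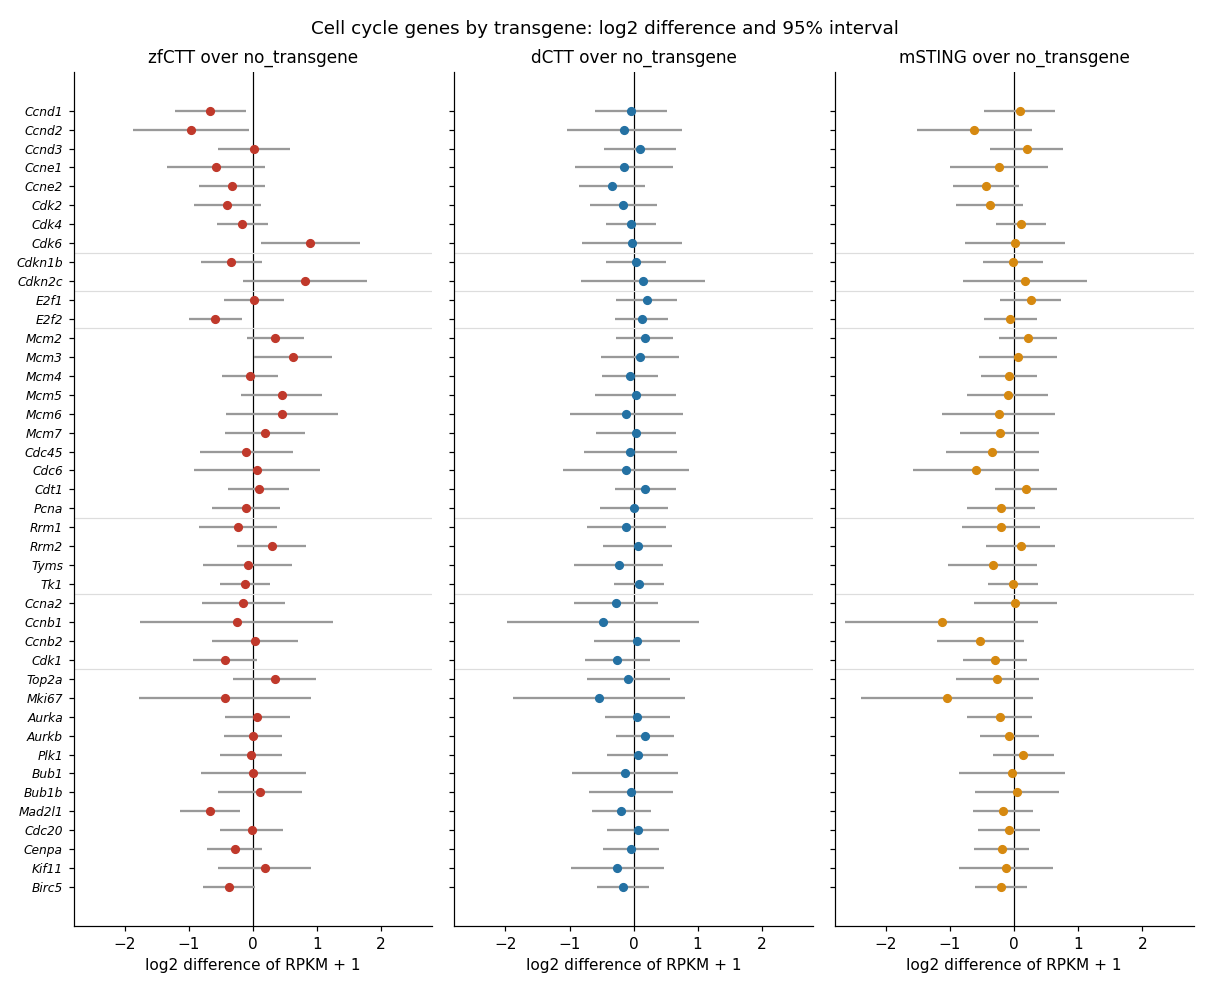
Log2 difference of RPKM + 1 for each of the 42 genes in zfCTT, dCTT and mSTING, each against no transgene, with the 95% interval of limma's fit as bars. Most intervals include 0, and those of Ccnd1, Ccnd2, E2f2 and Mad2l1 (lower) and Cdk6 and Mcm3 (higher) exclude it in zfCTT against no transgene, at adjusted p-values of 0.203 to 0.363.

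Libraries of the same label also differed. The median size of the log2 difference between the 2 libraries over the 42 genes was 0.34 in zfCTT, 0.27 in dCTT and 0.14 in mSTING, against 0.35 without transgene. Replicate 1 exceeded replicate 2 for 30 of the 42 genes in zfCTT, 29 in dCTT and 17 in mSTING, against 29 without transgene, while over all tested genes the shares were 53.9%, 50.9% and 45.8%, against 50.1%. With its sign, replicate 1 minus replicate 2, this median was 0.26 in zfCTT, 0.21 in dCTT and -0.05 in mSTING, against 0.28 without transgene. Replicate 1 was the shallower library in zfCTT, dCTT and the no-transgene group, and in mSTING the depths were 88.1 M and 88.2 M reads. What part depth had in this was not tested. A gap of more than 1.5-fold between replicates was found for 9 of the 42 genes (21.4%) in zfCTT, 6 (14.3%) in dCTT and 3 (7.14%) in mSTING, against 12 (28.6%) without transgene. Over all tested genes these shares were 20.6% in zfCTT, 13.7% in dCTT and 12.6% in mSTING, against 25.2% without transgene.

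Beyond the 42, 89 further genes of the same pathways were listed by function, of which 85 were tested, and 0 passed in any of the 6 comparisons. At an unadjusted p under 0.05, 3 were higher and 0 lower in zfCTT against no transgene, 5 higher and 1 lower in zfCTT against mSTING, and 3 higher and 3 lower in zfCTT against dCTT. Over all tested genes the shares at this criterion were 13.4%, 11% and 12.7% in these comparisons, above those of the 85 genes. Their median log2 difference was -0.01 in zfCTT against no transgene, beside -0.04 over all tested genes. Cdkn1c, Rb1, Myc and Orc3 did not reach the filter. Myc, a growth factor-induced transcription factor, lay between 0.147 and 0.621 RPKM.

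Cdkn1a came closest to the threshold among the regulators. It encodes p21, a CDK inhibitor that is switched on by p53 (chromosome 17, 29090976 to 29100727, plus strand). It had 99.6 and 51.4 RPKM in zfCTT, 15.8 and 15.9 in dCTT and 55.3 and 29.7 in mSTING, against 13.4 and 17.8 RPKM without transgene. The zfCTT and mSTING libraries lay above all dCTT and no-transgene libraries, and zfCTT overlapped mSTING. The log2 difference was 2.14 ± 0.40 for zfCTT against no transgene (95% interval 1.19 to 3.09, limma adjusted p = 0.0647), 2.1 ± 0.40 for zfCTT against dCTT (limma adjusted p = 0.0728) and 0.80 ± 0.40 for zfCTT against mSTING (limma adjusted p = 0.478, with a difference of 0.33 to 1.28 when 1 library was left out). For mSTING against no transgene it was 1.33 ± 0.40 (limma adjusted p = 0.840).

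Dck and Mcm10 were picked out after their values were seen. Dck, deoxycytidine kinase of the nucleotide salvage pathway, had 11.7 and 12 RPKM in zfCTT, 5.53 and 5.04 in dCTT and 9.67 and 6.70 in mSTING, against 5.32 and 5.07 RPKM without transgene. Its group means had the same order as those of Cdkn1a, and the log2 difference of zfCTT from no transgene was 1.05 ± 0.19 (limma adjusted p = 0.0638). Mcm10, a replication initiation factor, had 10.4 and 7.61 RPKM in zfCTT, 5.55 and 4.46 in dCTT and 6.01 and 4.87 in mSTING, against 5.21 and 4.41 RPKM without transgene, with a log2 difference of 0.77 ± 0.21 (limma adjusted p = 0.179).

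Foxm1, a transcription factor of G2 and mitotic genes, had 14.3 and 16 RPKM in zfCTT, 21.9 and 23.7 in dCTT and 20.4 and 21.1 in mSTING, against 17.5 and 24.1 RPKM without transgene. It was lowest in the zfCTT libraries, with a log2 difference from no transgene of -0.42 ± 0.20 (limma adjusted p = 0.426), which was -0.64 without no-transgene replicate 1 and -0.20 without no-transgene replicate 2. Mybl2, B-Myb, had 90.8 and 86.4 RPKM in zfCTT, 96.1 and 80.6 in dCTT and 106 and 94.0 in mSTING, against 75.7 and 81.9 RPKM without transgene, and its log2 difference was 0.17 ± 0.18 (limma adjusted p = 0.733).

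**Figure D5:**
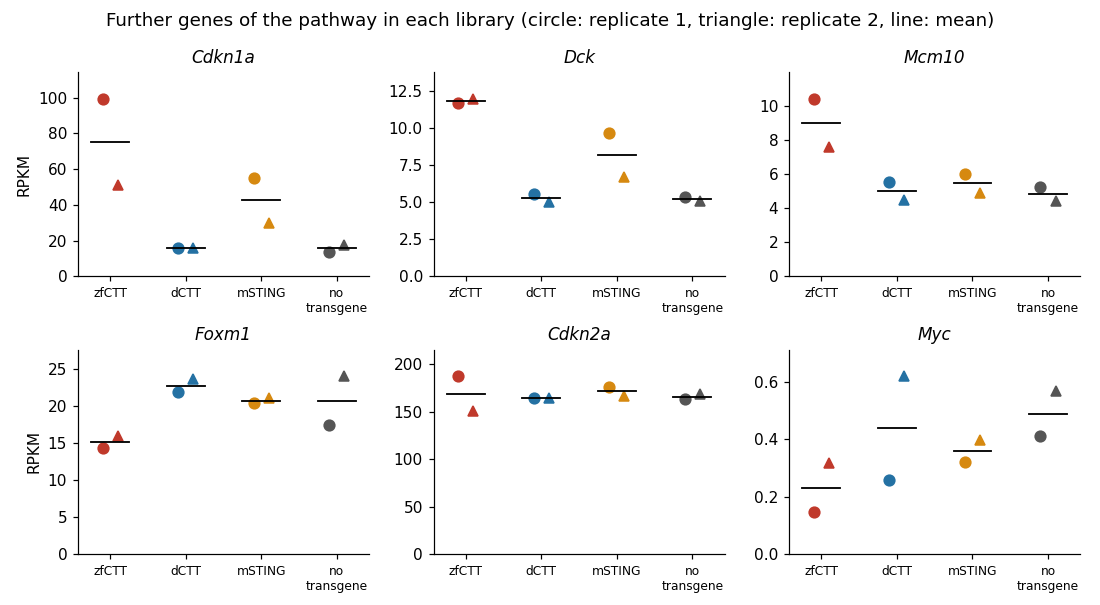
RPKM of Cdkn1a, Dck, Mcm10, Foxm1, Cdkn2a and Myc in each library (circle, replicate 1; triangle, replicate 2; line, mean of the 2). Cdkn1a stands at 99.6 and 51.4 RPKM in zfCTT and 55.3 and 29.7 RPKM in mSTING, above dCTT and no transgene, while Cdkn2a stays between 150 and 187 RPKM in all 8 libraries.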

How the data were processed

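Polyadenylated RNA of 8 libraries, 2 for each of 4 transgene labels, was sequenced single-end, per the labels' protocols. The deposited table holds RPKM, which the authors scaled by gene length and library size, for 53715 genes. Tools listed per the submitters' processing notes were cutadapt 1.16 and HISAT2 2.1.0, and builds GRCm38 and mm10, without their roles. No source used here names the counting tool, the annotation release or the strand setting. Of the 42 genes, 14 share exonic bases with another gene, 4 of them over more than 10% of their exon length (Ccnd1, Ccne2, Cdk4 and Ccna2), and without strand these reads cannot be told apart.

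Symbols, positions and exon lengths came from the GENCODE annotation of GRCm38; 53620 identifiers had a symbol and 95 had none. Multiplied by exon length, RPKM gave whole reads to within 0.05 for 96.8% to 97.5% of values under 200 reads, which gave each depth. RPKM are not counts, so the test was limma 3.58.1 (R 4.3.3) with an intensity trend on log2(RPKM + 1), in genes with at least 1 RPKM in at least 2 libraries, fitted over 4 groups. Errors are SE of the fit, and tests are two-sided. An exact permutation test of 2 libraries against 2 cannot go below p = 0.333. The procedure was tested on simulated data. Alternatives changed the pseudocount, filter, centring, block and libraries, or ran limma-voom on the recovered reads.

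The genes and lists were chosen with earlier results of these data known. Every one of the 42 genes could be named. Full statistics went to those past the threshold, otherwise to the highest and lowest difference in each role group, and levels per library to a list of cyclins, kinases, inhibitors, replication and mitotic genes, with ranges for the others. Further genes were named if past the threshold, with Cdkn1a, Myc, Foxm1 and Mybl2 in any case. Ccnb2, Mcm3, Mad2l1, Birc5, Dck, Mcm10 and Cdkn2a were added after their values were seen, where these rules did not name them.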

Additional observations from a re-analysis of the deposited data

How the results depend on the processing

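None of the 42 genes passed the threshold under any alternative run, limma-voom on recovered reads included. The counts over all genes did move. With no filter on low values, 12 genes were called in mSTING against no transgene, 34 in zfCTT against no transgene, 14 in dCTT against mSTING, 29 in zfCTT against mSTING and 28 in zfCTT against dCTT. With a mean of 5 RPKM or more required, zfCTT gave 64 calls against no transgene, 2 against mSTING and 61 against dCTT. Fitting only the groups compared gave 34, 0 and 65. A pseudocount of 0.1 gave 11 calls in mSTING against no transgene, 3 in dCTT against mSTING and 0 in zfCTT against mSTING. limma-voom gave 53 in zfCTT against no transgene, 8 in zfCTT against mSTING and 169 in zfCTT against dCTT. Causes of these moves were not tested.

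With replicate number as a block, calls were 432 in zfCTT against no transgene, 44 against mSTING and 409 against dCTT, beside 146, 16 and 146 without it, with 0 of the 42 genes called. Of the further genes 3 then passed in zfCTT against no transgene (Cdkn1a, Dck and Mcm10, adjusted p of 0.0438, 0.0412 and 0.0466) and 2 against dCTT. Over all alternatives the adjusted p of Cdkn1a in zfCTT against no transgene ran from 0.0438 to 0.461. Between same-numbered libraries, deviations from the group mean correlated at 0.40, 0.26 and 0.43 for zfCTT with dCTT, mSTING and no transgene. They correlated at 0.76 for dCTT with no transgene, but at 0.03 and 0.04 for mSTING with dCTT and with no transgene. The numbers share no source in the labels, so the block is given only as an alternative.

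Leaving out libraries, each in turn and no-transgene replicate 1 with dCTT replicate 1 together, gave 0 to 16 calls in mSTING against no transgene, 0 to 10 in dCTT against mSTING, 0 to 144 in zfCTT against no transgene, 0 to 5 in zfCTT against mSTING and 0 to 148 in zfCTT against dCTT. Both libraries left out together gave 0 calls in all 3 zfCTT comparisons. In zfCTT against no transgene the calls were 2 and 49 without zfCTT replicate 1 or 2, 10 and 6 without dCTT replicate 1 or 2, and 2 and 8 without no-transgene replicate 1 or 2. In zfCTT against dCTT they were 2 and 83, 1 and 1, and 26 and 19 in the same order. The calls of mSTING against no transgene and of dCTT against mSTING came without mSTING replicate 2, and in zfCTT against mSTING every library left out brought the calls to 5 or fewer. The median of the 42 genes ran from -0.23 to -0.030 in mSTING against no transgene, -0.19 to 0.11 in dCTT against no transgene, -0.21 to 0.092 in zfCTT against no transgene, -0.081 to 0.11 in zfCTT against mSTING, -0.14 to 0.10 in zfCTT against dCTT and 0.041 to 0.16 in dCTT against mSTING.

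The log2 differences of some genes, none of them past the threshold, changed sign when libraries were left out. In mSTING against no transgene the lowest and highest were, for Ccnd3 -0.037 to 0.42, Ccna2 -0.33 to 0.36, Cdkn1b -0.12 to 0.089, E2f2 -0.22 to 0.10, Rrm2 -0.14 to 0.35, Cdkn2c -0.36 to 0.71, Plk1 -0.037 to 0.33 and Tyms -0.67 to 0.011. In dCTT against no transgene the lowest and highest were, for Ccnd3 -0.15 to 0.34, Ccnb2 -0.13 to 0.24, Cdkn2c -0.40 to 0.68, Cdkn1b -0.12 to 0.18, Cdc6 -0.59 to 0.34, E2f1 -0.0066 to 0.42, E2f2 -0.037 to 0.29, Mki67 -1.36 to 0.27, Tk1 -0.013 to 0.19, Tyms -0.57 to 0.11, Ccnb1 -1.34 to 0.39 and Aurkb -0.012 to 0.31. In zfCTT against no transgene the lowest and highest were, for Pcna -0.30 to 0.084, Ccnb2 -0.26 to 0.33, E2f1 -0.20 to 0.23, Rrm1 -0.54 to 0.076 and Top2a -0.0062 to 0.68. In dCTT against mSTING the lowest and highest were, for Cdkn2c -0.44 to 0.38, Cdkn1b -0.11 to 0.20, Rrm2 -0.17 to 0.086, Mcm2 -0.18 to 0.096 and Kif11 -0.27 to 0.016. In zfCTT against mSTING the lowest and highest were, for Tyms -0.033 to 0.53, Cdt1 -0.27 to 0.085 and Ccna2 -0.36 to 0.029. In zfCTT against dCTT the lowest and highest were, for Pcna -0.30 to 0.077, Ccnb1 -0.21 to 0.66, Mybl2 -0.12 to 0.13 and Cdk1 -0.37 to 0.0097.

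Signs also turned when libraries were centred on their median, for Cdkn1b (0.059) and E2f2 (0.013) in mSTING against no transgene, Cdkn1b in dCTT against mSTING (-0.015) and Mybl2 in zfCTT against dCTT (-0.0078), and with limma-voom for Cdkn2c in dCTT against mSTING (0.012). Of 1725 alternative values of single genes 1649 kept direction and side of the threshold, 71 changed sign and 5 newly passed. They cover 109 pairs of a gene and a comparison, picked largely for extreme or separate values, not every gene in every comparison. Many of the 1649 could not change direction. Leaving out a library outside the groups compared keeps the log2 difference as it was, as do the filters and the block. Depth limits most the genes of few reads, such as Cdkn1b in zfCTT replicate 1, and 2 libraries a group limit all.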
